A study of Mus musculus with 26 samples.

Results

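Prrx1-positive fibroblasts of mouse ventral skin were compared at P30, a month after birth, and around birth. The comparison took every bulk RNA library of these cells: 6 libraries at P30 and 6 perinatal libraries, 2 each at E16.5, E18.5 and P1, which makes 12 of the 26 samples of the series and 12 of its 24 bulk libraries. The series abbreviates the Prrx1-positive cells as PPF and the Prrx1-negative cells, sorted alongside them, as PNF. All mice, in both groups, carried Prrx-Cre, in which the recombinase is driven from Prrx1, a homeobox gene of the early limb bud and of part of the facial mesenchyme. Cells were isolated by FACS. The sources used here do not give the sort gate, any reporter allele or the sex of the mice, and the labels do not say whether libraries of 1 age are separate animals, so that p-values measure the spread between libraries, which may be technical. The series text speaks of wound tissue, but the labels of these 12 libraries name ventral skin and no wound or treatment.

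Skin fibroblasts build the dermis. Before birth they divide and lay down matrix while the skin grows, and after birth they slow their division, turn over the matrix they have made and split into an upper papillary layer, a lower reticular layer and the fascia beneath. Proliferation genes are switched on together when cells divide, by factors that bind shared promoter elements, and the growth factor Igf2 with its imprinted neighbour H19 belongs to a network that is active in the fetus and shut down in the weeks after birth.

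The libraries held 4591721 to 12042400 counts in genes and detected 10935 to 15963 genes. Of these, 9506 genes passed the filter on low counts. Levels below are CPM, the counts divided by the scaled library total, and are compared between libraries for 1 gene at a time, since they are not adjusted for length. Within P30, libraries C and D were close to each other, as were E and F, with chi-square values per degree of freedom of 24.38 and 32.01 over genes against 449.35 for A and B, which is more than sampling noise, and all were kept as separate libraries. Libraries B, C and D had the lowest scaling factors at P30 (0.6449 to 0.7902), and A stood apart from the other P30 libraries in many fetal genes, as given beside those genes. The 12 libraries were made by amplification from a low input of RNA. The files appear to leave out reads shared by transcripts of 1 gene, so that a gene listed at a low count or at 0 may be one with many isoforms.

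At an adjusted p of 0.05 in edgeR, 435 of 9506 genes (4.58%) differed between P30 and the perinatal ages. The level was higher at P30 for 312 genes (3.28%) and lower for 123 (1.29%). Libraries of the 2 groups did not overlap for 326 genes with P30 above (3.43%) and 211 with P30 below (2.22%). The median log2 fold change of all tested genes was -0.08. The common biological coefficient of variation was 0.866, and the count of calls moved with the libraries used. It was 225 without P30 C, 249 without P30 D and 140 with C and D summed and E and F summed. It was 125 without P30 B, C and D together, and 9 with a replicate block on the library letters. All 435 genes kept their direction in these fits, which reuse the libraries that gave the calls and so could hardly reverse them. Of the 435, 193 passed every time 1 of the 12 libraries was left out. For many of the groups of genes below, but not all, the number that passed is also given in 2 smaller data sets. One had C and D summed and E and F summed (the summed pairs), and one was without P30 B, C and D.

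**Figure D1:**
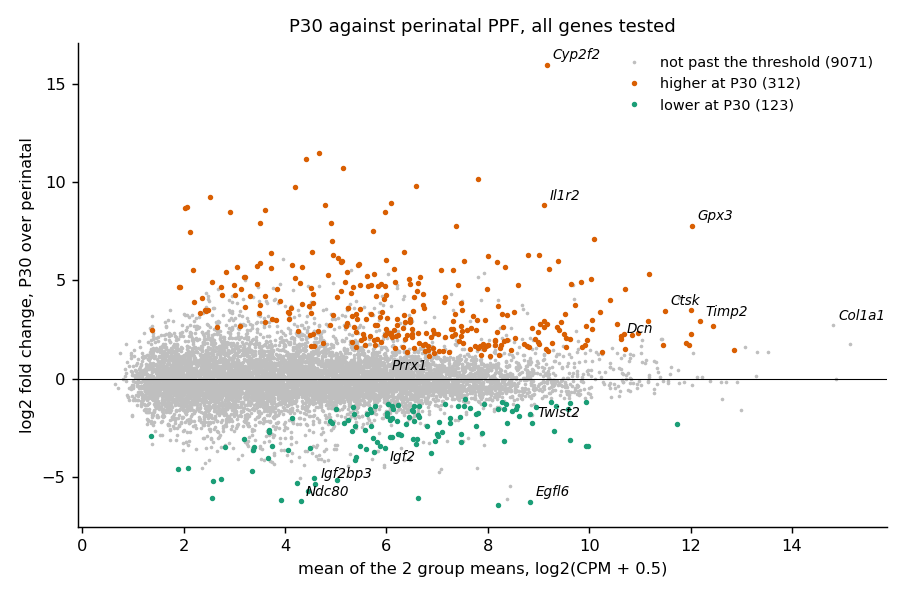
Log2 fold change of P30 over perinatal PPF for the 9506 genes tested (y axis) against the mean of the 2 group means as log2(CPM + 0.5) (x axis). Each point is a gene, with the 312 higher and 123 lower genes coloured, and the named genes include Prrx1, Col1a1 and Igf2, which are grey because they were not past the threshold.

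The gene that names the cells was measured in every library. Prrx1 stood at 38.3, 51.7 and 95.1 CPM (lowest, median and highest of 6) in perinatal PPF and at 22.6, 55.3 and 124 CPM at P30. The groups overlapped and the log2 fold change was 0.16 ± 0.48 (SE, adjusted p = 0.893). Pdgfra, the platelet-derived growth factor receptor that marks dermal fibroblasts, was also found in each library (7.84 to 35.5 CPM perinatal, 7.76 to 47.4 CPM at P30, adjusted p = 0.746). Of 12 fibroblast markers, 10 were tested. Vim, vimentin, was too low to be tested, at 0 to 0.439 CPM in perinatal libraries and 0 in each P30 library. As said above, a count this low may belong to a gene with many isoforms. Of the 10 tested, 1 was higher at P30 and 1 lower, against 3.28% and 1.29% of all genes, with a median log2 fold change of 0.34. The higher one was Dcn, decorin, a small proteoglycan that coats collagen fibrils. It rose from 477, 632 and 783 CPM to 1939, 2336 and 3906 CPM, with no overlap (log2 fold change 2.02 ± 0.30 SE, adjusted p = 0.0018). The lower one, Twist2, a mesenchymal transcription factor also called Dermo1, fell from 454, 838 and 969 CPM to 129, 151 and 209 CPM (log2 fold change -2.24 ± 0.29 SE, adjusted p = 7.1e-04). Each of the 6 perinatal libraries was above each of the 6 at P30.

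Of 15 tested genes of the G2 phase and mitosis, 4 fell and none rose, and all 15 had a log2 fold change below 0 with a median of -3.58, against -0.08 over all genes. Of 16 tested genes of the S phase, 2 fell and 14 did not pass the test, again with all 16 below 0 and a median of -1.81. The share that passed, 6 of these 31 genes, compares with 1.29% of all tested genes lower at P30. Over the same 12 libraries, DESeq2 called 13 mitotic and 7 S phase genes lower, and limma voom 13 and 3. These tests called 438 and 543 of all 9506 genes lower. With the summed pairs 0 mitotic and 1 S phase gene passed in edgeR, and without P30 B, C and D 2 and 0 passed. All mitotic genes stayed below 0 in both, and 1 S phase gene was above 0 without P30 B, C and D. Mki67, the proliferation antigen Ki-67, stood at 37.2, 74.5 and 169 CPM in perinatal libraries and at 0.106, 7.88 and 12.6 CPM at P30. No P30 library reached the lowest perinatal one (log2 fold change -3.58 ± 0.73 SE, adjusted p = 0.014), and the adjusted p was 0.0747 with the summed pairs. Ccnb2, cyclin B2, which drives entry into mitosis, fell from 51.7, 198 and 268 CPM to 0, 11.5 and 49.5 CPM (adjusted p = 0.042). The kinesins Cenpe and Kif11, which move chromosomes and build the spindle, fell from medians of 64.4 and 74.5 CPM to 0.0527 and 1.33 CPM. In the S phase, Dnmt1, the enzyme that copies DNA methylation onto new strands, fell from 108, 121 and 265 CPM to 4.41, 36.4 and 50.8 CPM without overlap (log2 fold change -2.13 ± 0.48 SE, adjusted p = 0.022). Rrm2, a subunit of the enzyme that makes deoxynucleotides, fell too but overlapped, with 84.0 CPM in P30 A against 9.62 to 24.1 CPM in the other P30 libraries. Mcm3, a part of the replication helicase (medians 243 and 57.3 CPM), and Tk1, thymidine kinase (36.5 and 9.34 CPM), did not pass, with adjusted p-values of 0.059 and 0.051.

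The summed level of the mitotic list was given by age as a description, with 2 libraries at each perinatal age. It was 1080 and 1112 CPM at E16.5, 1324 and 1441 CPM at E18.5, 308 and 573 CPM at P1, and 6.76 to 257 CPM at P30. Both P1 libraries were below all embryonic ones and above all P30 ones, and the highest P30 library was A. The 3 perinatal ages, tested against each other within PPF, gave 116 genes past the threshold of 13491 (0.86%). None of the 4 mitotic genes called above was among them (adjusted p = 0.891 for Mki67, 0.79 for Ccnb2, 0.775 for Cenpe and 0.874 for Kif11).

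**Figure D2:**
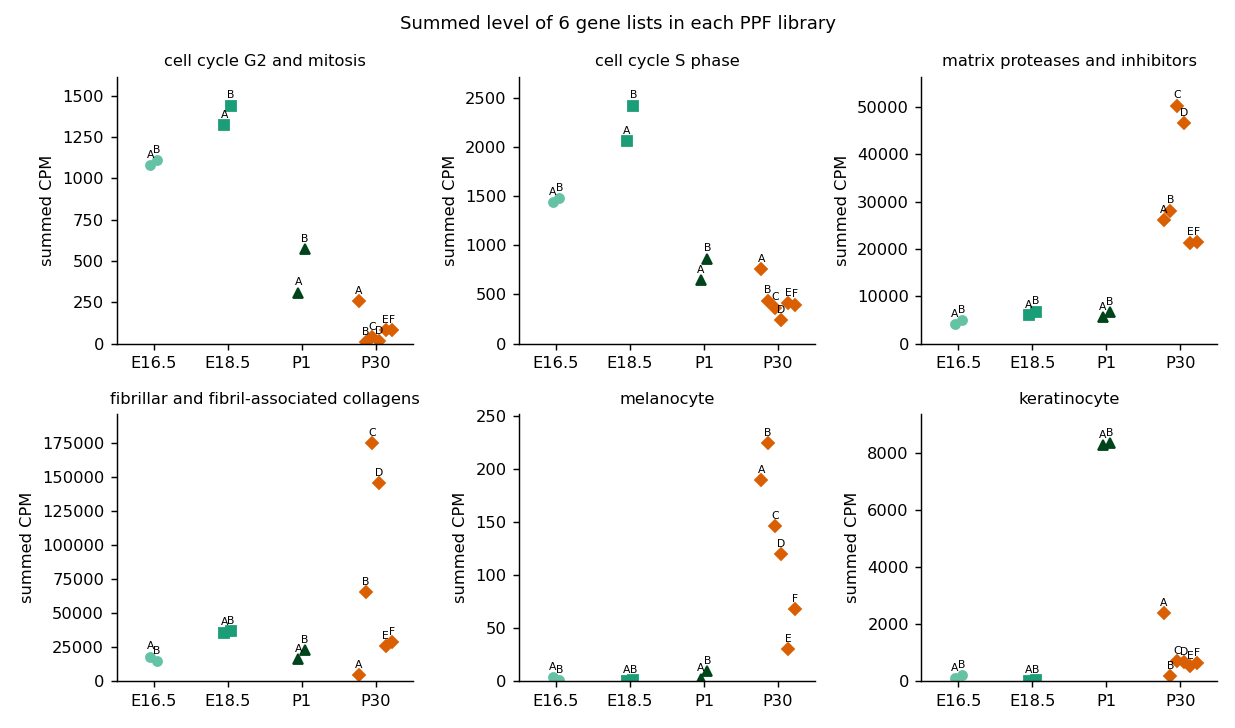
Summed CPM (y axis, from 0) of 6 gene lists in each PPF library by age (x axis), with the library letter above each point. The mitotic sum was lower in every P30 library than in any perinatal one, the S phase sum of P30 A (759 CPM) lay above that of P1 A (648 CPM), the protease sum was at least 21327 CPM at P30, the collagen sum ranged from 4175 to 175105 CPM within P30, the melanocyte sum was highest at P30 and the keratinocyte sum at P1.

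Of the 12 largest falls among genes that passed the test, reached a mean of 10 CPM and did not overlap, 8 were in genes of chromosome segregation, replication, DNA repair or dividing cells. Ndc80, a kinetochore protein that binds spindle microtubules, fell from 3.23, 39.5 and 67.4 CPM to 0, 0.0527 and 2.05 CPM (adjusted p = 0.0066). Ercc6l, a helicase of the mitotic chromosome, fell from 3.39, 19.1 and 79.3 CPM to 0, 0.106 and 1.53 CPM (adjusted p = 0.0079). For both, the groups did not overlap and the highest P30 library was A. Ska1 (kinetochore), Melk (a kinase of dividing cells), Brca1 (DNA repair) and Lrr1 (replisome removal) fell to P30 medians of 0 to 0.761 CPM with adjusted p-values of 0.027 to 0.036. Their calls, with those of Ccnb2, Cenpe, Kif11 and Rrm2, were less firm: each passed in only 3 to 7 of the 12 fits without 1 library, and the highest adjusted p among them was 0.0901, for Ccnb2 without P30 E. The calls of Mki67, Ndc80, Ercc6l and Dnmt1 passed in all 12. Without P30 B, C and D the adjusted p was 0.0596 for Ndc80, 0.105 for Ercc6l and 0.0695 for Dnmt1.

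The promoters of mitotic genes are known for 2 elements, the cell cycle homology region (CHR) and the CCAAT box, and so the promoters of the 3 called mitotic genes that hold both are shown. The fourth, Cenpe, holds the CCAAT letters and no match to the CHR letters in its window. They are RefSeq sequences on GRCm38.p6, the build of mm10, from 250 bases before to 50 after the annotated start, 5′ to 3′ in the sense of the gene, with the CHR letters TTTGAA or TTCGAA and the CCAAT letters in capitals on either strand.
Ccnb2 (chr9:70421505-70421804, minus strand): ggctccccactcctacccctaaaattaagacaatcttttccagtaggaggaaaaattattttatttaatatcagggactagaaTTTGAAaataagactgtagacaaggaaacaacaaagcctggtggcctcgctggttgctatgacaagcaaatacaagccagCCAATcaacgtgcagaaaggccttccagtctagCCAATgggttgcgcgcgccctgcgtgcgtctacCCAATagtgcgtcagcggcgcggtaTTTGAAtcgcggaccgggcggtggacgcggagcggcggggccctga
Mki67 (chr7:135716330-135716629, minus strand): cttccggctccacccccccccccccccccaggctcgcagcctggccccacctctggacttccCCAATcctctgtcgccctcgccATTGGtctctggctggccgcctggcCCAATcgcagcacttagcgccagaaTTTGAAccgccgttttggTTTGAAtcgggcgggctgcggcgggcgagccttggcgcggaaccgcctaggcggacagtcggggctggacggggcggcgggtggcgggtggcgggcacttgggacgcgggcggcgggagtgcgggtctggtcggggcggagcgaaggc
Kif11 (chr19:37376132-37376431, plus strand): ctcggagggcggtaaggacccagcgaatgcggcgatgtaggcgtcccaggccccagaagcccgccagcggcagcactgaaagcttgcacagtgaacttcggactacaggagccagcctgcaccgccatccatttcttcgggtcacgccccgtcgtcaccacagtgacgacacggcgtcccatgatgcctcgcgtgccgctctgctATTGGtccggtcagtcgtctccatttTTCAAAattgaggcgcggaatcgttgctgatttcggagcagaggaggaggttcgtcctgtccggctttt
The CHR letters stood at bases 84 to 89 and 255 to 260 of the Ccnb2 window, at bases 135 to 140 and 153 to 158 for Mki67 and at bases 232 to 237 for Kif11. The CCAAT letters occurred 3 times each in Ccnb2 and Mki67 and 1 time in Kif11, and no match of 1 motif overlapped one of the other in these windows. Of the 13 tested mitotic genes with a promoter in the table, 11 held the CHR letters and 12 the CCAAT letters. Of all 32851 promoters of the same length, 19.2% held the CHR letters and 37.4% the CCAAT letters. For the S phase list the counts were 3 and 9 of 14. A match describes the letters of the window and not binding.

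Genes of the fetal growth network differed among themselves. Of 7 tested fetal RNA-binding and chromatin genes, 1 fell and none rose, against 1.29% of all genes lower, so that this is no result about the list. Of the 7, 4 were above and 3 below 0, with a median log2 fold change of 0.00. The one that fell was Igf2bp3. This gene for an RNA-binding protein of fetal tissues stood at 26.7, 41.7 and 71.4 CPM in perinatal libraries and at 0, 0.825 and 3.71 CPM at P30 (log2 fold change -5.34 ± 0.94 SE, adjusted p = 0.0055). The groups were far apart, and the call held in all 12 fits without 1 library. Its relative Igf2bp1 did not pass (adjusted p = 0.162): 4 P30 libraries were at or under 0.107 CPM, E was at 0.949 and A at 23.8 CPM, inside the perinatal range of 19.6 to 86.0 CPM. Of 16 tested imprinted growth genes, 2 fell, 1 (Dcn) rose and 13 did not pass, against 1.29% of all genes lower and 3.28% higher. Of the 16, 12 were below 0, with a median log2 fold change of -1.5, and 0 fell in edgeR with the summed pairs or without P30 B, C and D. The summed level of this list was 1993, 2644 and 4868 CPM in perinatal libraries and 3207, 3603 and 4834 CPM at P30. Dcn, with medians of 632 and 2336 CPM, is part of this sum, so that the sum does not describe the other members. Plagl1, the zinc finger factor that activates several imprinted genes, fell from 207, 241 and 960 CPM to 22.4, 49.7 and 115 CPM (adjusted p = 0.013, but 0.0643 with the summed pairs and 0.155 without P30 B, C and D). H19, the noncoding RNA next to Igf2, fell from 3.36, 6.96 and 11.4 CPM to 0, 0.0534 and 1.28 CPM (adjusted p = 0.027). This call passed in 6 of the 12 fits without 1 library, with a highest adjusted p of 0.068 without P30 C. Igf2, insulin-like growth factor 2, was at 53.9, 92.1 and 262 CPM against 0, 0.606 and 28.5 CPM. The groups did not overlap, yet the difference was not past the threshold (log2 fold change -4.47 ± 1.21 SE, adjusted p = 0.0502). Library A again held the highest P30 value, while the other 5 were at or under 0.931 CPM. Of the 12 tested genes of the IGF axis 3 were higher and none lower, against 3.28% of all genes higher, with a median of 1.08. Igfbp5 and Igfbp6, which bind IGFs outside the cell, rose from medians of 43.3 and 142 CPM to 312 and 2181 CPM, and Stc2, an inhibitor of the protease that frees IGFs, from 1.29 to 16.0 CPM (adjusted p = 0.0031, 0.035 and 0.027). The call of Igfbp6 passed in 5 of the 12 fits without 1 library and that of Stc2 in 8. With the summed pairs only Igfbp5 passed of the 12 genes, and without P30 B, C and D its adjusted p was 0.0654.

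The other large falls were in genes with no role in division. Egfl6, an extracellular matrix protein with EGF repeats (chromosome X, 166523010 to 166585720, minus strand), was abundant in each perinatal library, at 438, 652 and 1540 CPM, and stood at 0, 2.72 and 46.7 CPM at P30. The groups did not overlap (log2 fold change -6.25 ± 1.16 SE, adjusted p = 0.0078), and P30 A was again the highest. Without P30 B, C and D the adjusted p was 0.0766. Nat8l, the enzyme that makes N-acetylaspartate, fell from a median of 28.5 to 1.05 CPM (adjusted p = 0.011, and 0.0907 without P30 B, C and D). Frrs1l, known as a partner of glutamate receptors in the brain, was low throughout and fell from 8.66 CPM to a P30 median of 0 (adjusted p = 0.013, and 0.0829 with the summed pairs).

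The largest rises were in genes with few or no perinatal counts. Cyp2f2, a cytochrome P450 that oxidises small aromatic molecules (ENSMUSG00000052974, chromosome 7, 27119909 to 27133660, plus strand), had 0 counts in all 6 perinatal libraries and 392, 639 and 2407 CPM at P30. Taking a floor of 3 counts over the perinatal group, it was at least 16240-fold higher (adjusted p = 1.5e-04). Nat8f3 and Cib3 also had 0 perinatal counts. Nat8f3, a member of the Nat8 acetyltransferase family, was at 28.2, 43.9 and 77.2 CPM at P30 (at least 713-fold higher, adjusted p = 1.6e-04). Cib3, a calcium- and integrin-binding protein, was at 3.83, 43.0 and 94.6 CPM (at least 592-fold higher, adjusted p = 0.0017). Nat8f7 (1 perinatal count; 58.2 CPM at the P30 median) lies in the same gene family and Amy1, a salivary amylase gene (0 perinatal counts; 9.34 CPM), has near-identical copies, so that their reads may be split between copies.

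The rest of the 12 reached medians between 23.6 and 900 CPM at P30. Il1r2, the decoy receptor that binds interleukin 1 without signalling, stood at 0, 0.138 and 8.56 CPM in perinatal libraries and 439, 900 and 1971 CPM at P30 (log2 fold change 8.83 ± 1.38 SE, adjusted p = 0.0026). The only perinatal libraries above 1 CPM were the 2 of P1. Inmt, which methylates indoleamines, went from 0, 0 and 1.5 CPM to 181, 345 and 795 CPM (adjusted p = 1.6e-04). Gpr1, a receptor for the adipokine chemerin, was at 0 to 0.98 CPM and then at 67.9, 107 and 298 CPM (adjusted p = 3.2e-04). Gldn (gliomedin), Myoc (myocilin), Gpm6a (a neuronal membrane glycoprotein) and Itgbl1 (an integrin-like matrix protein) had perinatal highs of 0.485, 0.138, 0.646 and 0.2 CPM and P30 medians of 115, 29.5, 48.1 and 23.6 CPM. The 12 were chosen among called genes whose groups did not overlap. Each call held in the 12 fits without 1 library, with C and D summed and E and F summed, and without P30 B, C and D. With libraries A and B alone, which leaves 2 at P30, those of Cyp2f2, Nat8f7, Gldn, Myoc and Inmt still passed.

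**Figure D3:**
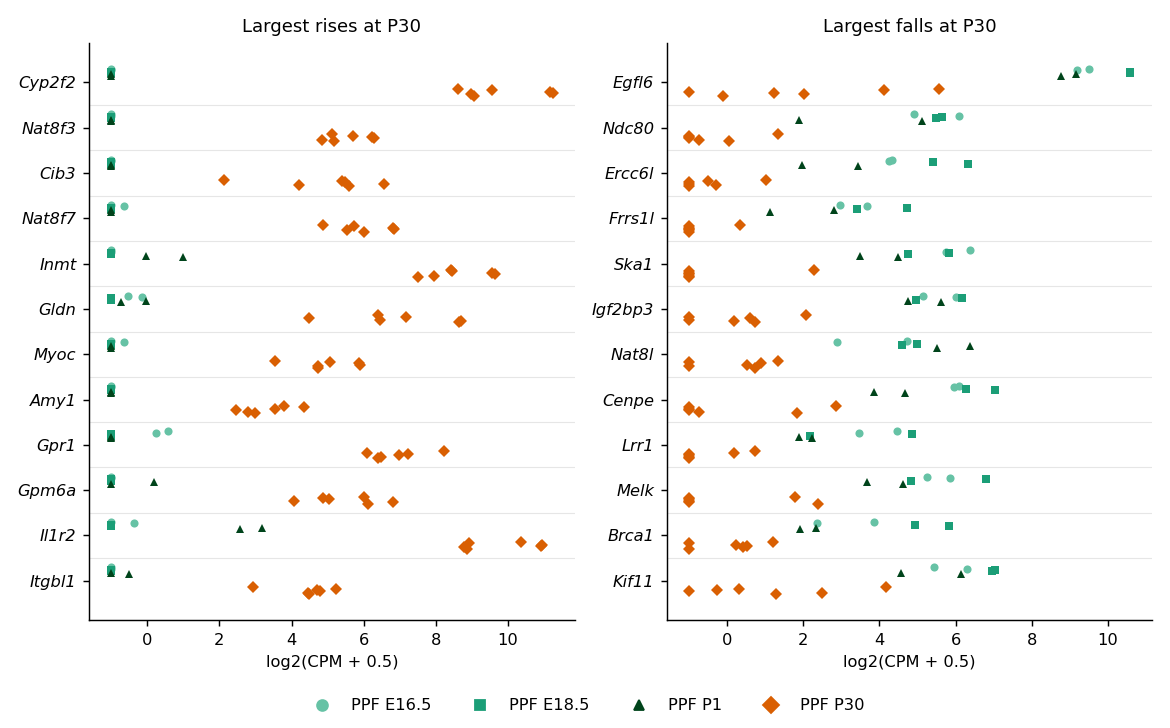
Levels as log2(CPM + 0.5) (x axis) of the 12 genes with the largest rise (left) and the largest fall (right) at P30, by gene (y axis), 1 point per PPF library, coloured by age. The 24 genes were chosen among called genes whose groups did not overlap, so the gap between the groups is part of the choice, and for several of the falls the P30 point nearest to the perinatal ones is library A.

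Cyp2f2 was not the only detoxifying enzyme to rise. Of 18 tested xenobiotic, antioxidant and aldehyde enzymes, 8 were higher at P30 and none lower, against 3.28% of all genes higher, and the median log2 fold change was 2.49. Gpx3, the secreted glutathione peroxidase, rose from 2.76, 32.5 and 82.4 CPM to 1956, 3806 and 19130 CPM (log2 fold change 7.79 ± 1.02 SE, adjusted p = 7.9e-04). Libraries C and D were the 2 highest, and even the lowest P30 library was above every perinatal one. Aldh1a1, which makes retinoic acid and clears aldehydes, rose from 0, 5.37 and 14.3 CPM to 183, 381 and 587 CPM (adjusted p = 0.0055). Adh7, an alcohol dehydrogenase that also oxidises retinol, rose from 18.3, 55.7 and 158 CPM to 215, 698 and 1022 CPM (adjusted p = 0.0026). Neither overlapped. Without P30 B, C and D the adjusted p of Aldh1a1 was 0.0757 and that of Adh7 0.0596, and 2 genes of the list passed, against 5 with the summed pairs.

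Of 20 tested matrix proteases and inhibitors, 8 were higher and none lower, against 3.28% of all genes higher, with a median log2 fold change of 1.48, and the number higher was 6 with the summed pairs and 5 without P30 B, C and D. The summed level was 4080, 5800 and 6738 CPM in perinatal libraries and 21327, 27123 and 50304 CPM at P30. Ctsk, cathepsin K, a lysosomal protease that digests collagen (ENSMUSG00000028111, chromosome 3, 95499256 to 95509362, plus strand), rose from 417, 432 and 610 CPM to 3606, 5255 and 7555 CPM. The 6 perinatal values lay close together, no P30 value came near them, and the call passed in every fit with fewer libraries, also with libraries A and B alone (log2 fold change 3.46 ± 0.31 SE, adjusted p = 7.0e-05). Timp2, an inhibitor of metalloproteinases that also helps to activate Mmp2, rose from 621, 1102 and 1373 CPM to 4665, 6347 and 14180 CPM (adjusted p = 0.0011). Ctsl, cathepsin L, rose from a median of 243 to 1163 CPM and Serpine2, an inhibitor of thrombin and plasminogen activators, from 192 to 1091 CPM (adjusted p = 0.0026 and 0.0027). Mmp2, the gelatinase, was picked out after its values were seen: it rose from 1021, 1478 and 2300 CPM to 4870, 6726 and 17980 CPM (adjusted p = 0.0033).

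Of 14 tested fibrillar and fibril-associated collagen genes, none rose and 1 fell, against 1.29% of all genes lower. Of the 14, 7 were above and 7 below 0, with a median of 0.06. The one that fell was Col12a1, a collagen that links fibrils, from 52.3, 82.9 and 137 CPM to 3.06, 10.8 and 35.1 CPM (adjusted p = 0.025; it passed in 8 of the 12 fits without 1 library, and was 0.0587 without P30 C and 0.0702 with the summed pairs). Col1a1, the main collagen of dermis, ranged from 3389 to 13880 CPM in perinatal libraries. At P30 it was 1409 CPM in A, 10760 in E, 14380 in F, 42330 in B, 103600 in D and 127400 in C. The P30 libraries thus covered the perinatal range and went beyond it on both sides, and the log2 fold change of 2.72 ± 0.84 (SE) was not past the threshold (adjusted p = 0.088). Col3a1 behaved alike, with 479 CPM in A and 25630 CPM in the highest library at P30 (adjusted p = 0.254).

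Some genes for proteins that organise collagen and elastic fibres rose, and the counts of each list stand beside 3.28% of all genes higher. Of 8 tested small leucine-rich proteoglycans, Dcn and Prelp were higher, all 8 were above 0 and the median was 1.79. Prelp, which anchors basement membranes to connective tissue, rose from 55.3, 85.7 and 402 CPM to 479, 679 and 3032 CPM (adjusted p = 0.012, and 0.121 without P30 B, C and D). Of 10 elastic fibre genes, Fbln2 and Fbln5, which join elastin to microfibrils and cells, rose from medians of 5.71 and 333 CPM to 61.0 and 1065 CPM (adjusted p = 0.0026 and 0.02), the latter with 0.0807 in the summed pairs. Of 21 genes of collagen processing, 2 were higher: Adamts2, which cleaves the amino end of procollagen, rose from 267, 530 and 788 CPM to 1811, 2460 and 8064 CPM (adjusted p = 0.004), and Pcolce2, which speeds cleavage of the other end, from a median of 11.0 to 1683 CPM (adjusted p = 0.042). The call of Pcolce2 passed in 3 of the 12 fits without 1 library. With the summed pairs 2 proteoglycans, 1 elastic fibre gene and 1 gene of collagen processing were higher. Without P30 B, C and D 1 gene of each of these lists was higher. In the basement membrane list 1 of 8 rose (Lamb2, a laminin chain, adjusted p = 0.036), and in the matricellular list 1 of 16 (Ccn5, adjusted p = 0.043). These 2 passed in 5 and 2 of the 12 fits, with highest adjusted p-values of 0.106 without P30 C and 0.113 without P1 A. At the share of all genes, 1 gene in a list of this size is no result about the list.

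**Figure D4:**
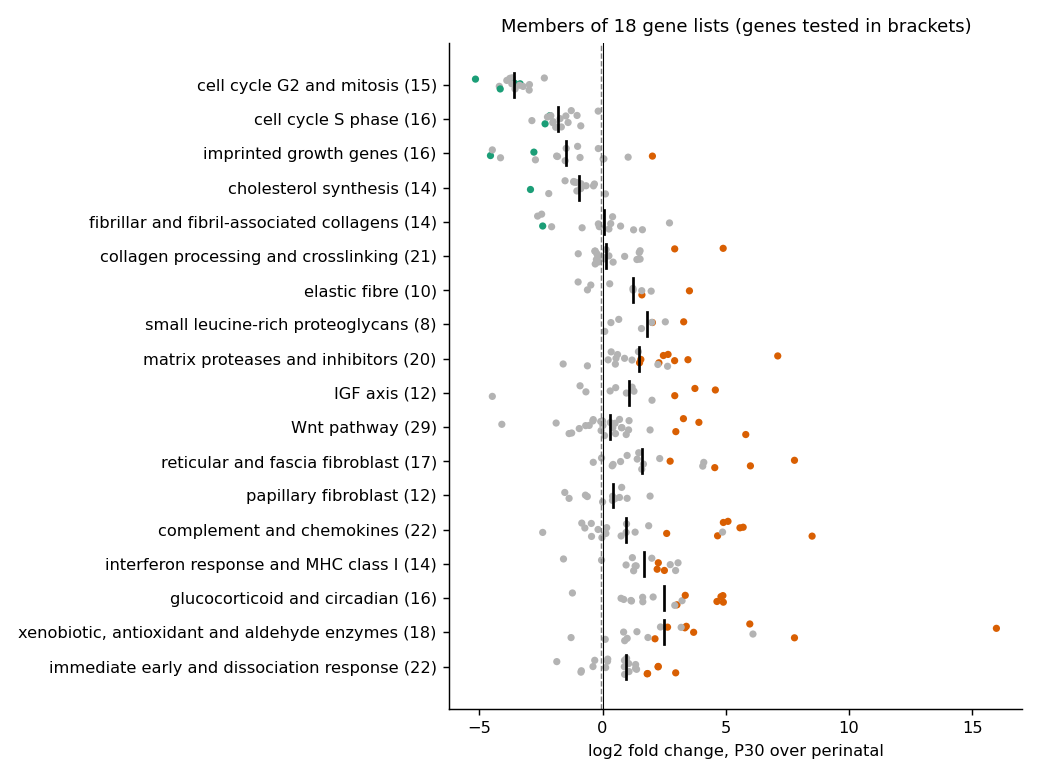
Log2 fold change of P30 over perinatal PPF (x axis) for the tested members of 18 gene lists (y axis). Each point is a gene, orange where higher, green where lower and grey where not past the threshold, the black bar is the median of the list and the dashed line the median of all genes (-0.08). All mitotic and S phase genes lie below 0, and the 8 higher proteases and 8 higher detoxifying enzymes lie to the right.

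Of 17 tested genes used to mark fibroblasts of the reticular dermis and fascia, 4 rose and none fell (median 1.59), against 3.28% of all genes higher, and 3 passed in each of the smaller data sets. Gsn, gelsolin, which severs actin, rose from 6.07, 12.2 and 50.3 CPM to 364, 476 and 614 CPM (log2 fold change 4.55 ± 0.53 SE, adjusted p = 3.5e-04). Scara5, a ferritin receptor, rose from 0.146, 18.1 and 42.6 CPM to 1005, 1227 and 1913 CPM (adjusted p = 0.0012), and Gpx3 is given above. All 3 were free of overlap. Cd34, a sialomucin of progenitor cells, overlapped, with 4.99 CPM in P30 A against 55.3 to 179 CPM in the other P30 libraries and 9.51 to 18.6 CPM in perinatal ones (adjusted p = 0.023). It passed in 8 of the 12 fits without 1 library and was 0.0662 without P30 C. Of 12 genes used to mark the papillary dermis, 0 passed in edgeR, with 8 above 0 and a median of 0.40, while 1 was higher in limma voom and 2 were lower in DESeq2. The summed papillary level was highest in P30 E and F, at 7399 and 6863 CPM, against 1825 to 4179 CPM in perinatal libraries and 1611 to 2962 CPM in the other P30 libraries. The difference between the reticular and the papillary genes was not tested. Crabp1, a retinoic acid carrier of the upper dermis, was at 464, 1858 and 3460 CPM in perinatal libraries and at 387, 1268 and 1812 CPM at P30 (adjusted p = 0.537). In a bulk library, fewer cells of 1 kind and less RNA in each cell cannot be told apart.

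Of 29 tested genes of the Wnt pathway, 4 rose and none fell (median 0.31), against 3.28% of all genes higher, and all 4 were secreted modulators. Rspo1, which amplifies Wnt signals at the receptor, rose from 42.7, 56.7 and 68.8 CPM to 209, 521 and 554 CPM with no overlap (log2 fold change 2.97 ± 0.33 SE, adjusted p = 2.7e-04), and its relative Rspo2 from 0, 0.404 and 4.31 CPM to 8.05, 58.8 and 231 CPM (adjusted p = 0.02). Dkk2, which binds the LRP coreceptors, rose from a median of 14.3 to 260 CPM (adjusted p = 0.0084). Sfrp1, a decoy that binds Wnt ligands, rose from 39.5 to 364 CPM but overlapped (adjusted p = 0.014). Sfrp1 was at 1125 and 1202 CPM in P30 E and F, against 112 to 397 CPM in the other P30 libraries. In E and F the whole list summed to 8829 and 8520 CPM, against 2545 to 3533 CPM in the other P30 libraries. The perinatal sums were 1560 to 3271 CPM. The call of Rspo2 was lost in 1 fit, without P1 A (adjusted p = 0.0536). The number that passed was 2 with the summed pairs and 3 without P30 B, C and D. In the other pathways 1 gene each was higher and none lower: the ligand Tgfb2 among 14 genes of the TGF-beta pathway (medians 6.02 and 73.5 CPM, adjusted p = 0.0055), the ligand Bmp7 among 18 of the BMP pathway (135 and 358 CPM, 0.024) and Pdgfrl, a receptor-like protein, among 10 of the FGF and PDGF pathways (145 and 795 CPM, 0.0099). With 3.28% of all genes higher, 1 gene in a list of this size is no result about the list, and the medians were 0.53, -0.31 and -0.61. Without P30 B, C and D the 3 genes had adjusted p-values of 0.0924, 0.275 and 0.188.

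Of 22 tested complement and chemokine genes, 7 were higher and none lower, against 3.28% of all genes higher, with 7 below 0 and a median of 0.96, and 5 passed in each of the smaller data sets. The summed level of the list was 528 to 1100 CPM in embryonic libraries and 5923 and 6258 CPM at P1. At P30 it was 4327 to 10065 CPM, so that both P1 libraries lay within the P30 range. Serping1, the C1 inhibitor that holds complement and kallikrein in check, rose from 11.0, 61.4 and 101 CPM to 1035, 1438 and 3524 CPM (log2 fold change 5.09 ± 0.62 SE, adjusted p = 4.3e-04). C1ra, a protease of the C1 complex, rose from 0, 2.06 and 6.51 CPM to 58.3, 79.5 and 90.3 CPM (adjusted p = 0.0041). Both groups were well apart, and the P30 values of C1ra were within a narrow range. Ccl8, a chemokine for monocytes and T cells, was at 0 to 1.57 CPM and then at 2.81, 99.7 and 345 CPM, with A the lowest and B the highest at P30 (adjusted p = 0.0026). Ccl19, a ligand of CCR7, was also higher (medians 4.6 and 134 CPM, adjusted p = 0.0026) but is annotated in several near-identical copies. Of 14 genes of the interferon response and MHC class I, 3 were higher and none lower (median 1.68), against 3.28% of all genes higher. In each of the smaller data sets 1 passed. B2m, the light chain of MHC class I, rose from 349, 603 and 1074 CPM to 2490, 3075 and 3611 CPM (adjusted p = 0.0018). Bst2 and Psmb10, a viral restriction factor and a subunit of the immunoproteasome, overlapped between the groups and passed in 4 and 2 of the 12 fits without 1 library, with highest adjusted p-values of 0.0947 without P30 C and 0.111 without P1 A.

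Of 16 tested glucocorticoid and circadian genes, 6 rose and none fell, against 3.28% of all genes higher, and 15 were above 0 (median 2.49). With the summed pairs 2 passed, and without P30 B, C and D 3 passed. The level of the whole list, added up, was 178 to 494 CPM in embryonic libraries and 1667 and 1783 CPM at P1. At P30 it was 1248 to 4195 CPM, with B the lowest, so that both P1 libraries lay within the P30 range. Dbp, a transcription factor at the output of the clock, rose from 2.3, 4.78 and 13.5 CPM to 39.1, 180 and 260 CPM (log2 fold change 4.80 ± 0.57 SE, adjusted p = 3.8e-04). Tef, of the same family, rose from a median of 2.44 to 21.2 CPM and Bhlhe41, a repressor within the clock, from 2.45 to 19.4 CPM (adjusted p = 0.018 and 0.011). Hsd11b1, which turns cortisone-like steroids into active hormone, rose from 0, 0.098 and 0.901 CPM to 5.07, 9.38 and 20.8 CPM (adjusted p = 0.016). None of these 4 overlapped. Nr1d1 and Per3, further clock genes named after their values were seen, had adjusted p-values of 0.018 and 0.044. Nr1d1 was free of overlap (0 to 16.3 CPM and 93.7 to 287 CPM) and was also among the genes that differed between the perinatal ages (adjusted p = 0.0077), with 0 CPM in both E18.5 libraries and 13.9 and 16.3 CPM at P1. Per3 overlapped, and was 0.105 without P1 A. The sources used here do not give the time of day of collection, so that age and the phase of the clock cannot be told apart. Clock factors are known to bind the E-box CACGTG and the D-box TTATGTAA or TTACGTAA. Of the 14 tested genes of this list with a promoter, 5 held the E-box letters and 1 the D-box letters on either strand in the RefSeq promoter window. Of the 6 genes that rose, Bhlhe41 and Tef held the E-box letters (7.15% of all promoters) and 1, Per3, the D-box letters (1.06%). The Per3 window is shown since it holds them 2 times, in capitals at bases 46 to 53 and 93 to 100.
Per3 (chr4:151044616-151044915, minus strand): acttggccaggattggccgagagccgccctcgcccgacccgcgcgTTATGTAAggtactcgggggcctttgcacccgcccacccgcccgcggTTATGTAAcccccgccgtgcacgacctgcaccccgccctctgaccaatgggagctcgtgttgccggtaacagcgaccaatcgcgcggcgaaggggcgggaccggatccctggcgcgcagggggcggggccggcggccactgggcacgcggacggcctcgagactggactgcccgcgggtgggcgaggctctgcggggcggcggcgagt

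Of 16 genes of retinoid handling and hormone receptors, 4 rose and none fell (median 0.45), against 3.28% of all genes higher, and 1 and 2 passed in the summed pairs and without P30 B, C and D. They included Aldh1a1, given above, its relative Aldh1a3 and the estrogen receptor Esr1. Esr1 rose from 0, 1.08 and 8.19 CPM to 7.45, 52.6 and 80.2 CPM (adjusted p = 0.031). The groups overlapped, with C and D the lowest P30 libraries. Esr1 and Aldh1a3 passed in 6 and 3 of the 12 fits without 1 library, with highest adjusted p-values of 0.0737 without E16.5 B and 0.11 without P1 A.

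Of 15 adipogenic genes, 2 rose, against 3.28% of all genes higher. They were Apoe, which carries lipid between cells (medians 0.745 and 8.455 CPM, adjusted p = 0.012), and Cebpd, an early factor of fat cell differentiation (0.029). The level of Apoe was low, and as said above a low count may belong to a gene with many isoforms. The median was -0.16, so that the list as a whole was near the median of all genes. Cebpd passed in 7 of the 12 fits without 1 library, and Apoe had adjusted p-values of 0.0657 and 0.0745 in the smaller data sets. In 14 genes of cholesterol synthesis 1 fell (Pmvk, a kinase of the mevalonate pathway, adjusted p = 0.043, past the threshold in 1 of the 12 fits). With 1.29% of all genes lower, 1 gene in a list of this size is no result about the list. Of the 14 genes, 13 were below 0, with a median of -0.96. Of 13 genes of glycolysis, 16 of contraction and the myofibroblast state, 12 anterior and 6 posterior HOX genes, 0 passed in edgeR, with medians of 0.16, -0.13, 0.00 and -0.51. HOX genes record the position of cells along the body axis.

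Of 22 tested genes known to respond to tissue digestion, among them immediate early genes, 5 were higher at P30 and none lower (median 0.94). Of all genes, 3.28% were higher. The summed level of the list was 8547, 18443 and 30864 CPM in perinatal libraries against 35478, 48679 and 56880 CPM at P30, without overlap. Fos, a part of AP-1, rose from 1101, 1696 and 2473 CPM to 3566, 6024 and 7341 CPM (adjusted p = 0.0062), and Socs3, an inhibitor of cytokine signalling, from 52.4, 129 and 678 CPM to 726, 1620 and 3127 CPM (adjusted p = 0.013). With the summed pairs 1 gene of the list passed, and without P30 B, C and D 2. The part of this response in the other rises was not tested.

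Markers of other cell types varied between libraries. Among the 14 lists of other cell types, 65 genes were tested and 3 passed, against 4.58% of all tested genes. Mlana, a melanosome protein of pigment cells, was higher at P30 (0, 0.0689 and 2.6 CPM against 17.3, 107 and 221 CPM, adjusted p = 0.0025). The summed melanocyte list was 0.292 to 9.11 CPM in perinatal libraries and 29.6 to 224 CPM at P30. Dct, Tyr and Pmel, further pigment genes, had medians of 0, 0.316 and 0.179 CPM in perinatal libraries and 8.31, 3.9 and 2.76 CPM at P30, and Dct did not pass. Tyrp1 and Slc45a2 were at 0 in all 12 libraries and Sox10 in each P30 library, where a 0 may belong to a gene with many isoforms. Rgs5, a pericyte gene, fell from 61.2, 118 and 203 CPM to 3.05, 14.2 and 34.6 CPM (adjusted p = 0.013, and 0.0580 without P30 B, C and D), with 0 other pericyte genes called of 7 tested. Car3, abundant in fat cells, fell from 28.4, 240 and 2404 CPM to 0, 2.76 and 28.5 CPM with an overlap of 1 library, B (adjusted p = 0.02), and was 0.0567 without P30 C. The keratinocyte list summed to 8293 and 8358 CPM in the 2 P1 libraries, 9.8 to 202 CPM in the other perinatal ones and 158 to 2370 CPM at P30, and the mast cell list reached 1782 CPM in P1 A. The list of cartilage, bone and tendon summed to 8482 CPM in E16.5 B, where the cartilage gene Matn1 stood at 4864 CPM, against 124 to 387 CPM in the other perinatal libraries and 287 to 1017 CPM at P30. The list of mature fat cells summed to 3280 CPM in E16.5 A, 31.1 to 1305 CPM in the other perinatal libraries and 10.2 to 820 CPM at P30. The dermal papilla list summed to 7354 and 7061 CPM in P30 E and F. It was 1228 to 1854 CPM in the other P30 libraries and 1269 to 3744 CPM in perinatal ones. Globin and other erythroid genes took 0.279% to 2.75% of counts in perinatal libraries and 0.027% to 1.76% at P30. The part of other cells in the results was not tested.

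Last, the change with age in PPF was set beside that in PNF, of which there were 10 perinatal libraries and 2 at P30. The difference between the 2 changes was past the threshold for 0 of 15559 genes (0%) in edgeR, with 1129 at an unadjusted p under 0.05, and for 18 in DESeq2. One of the 2 PNF libraries at P30, A, had 46.6% of its counts in erythroid genes, which leaves B as the only other sample of that group, and PNF E18.5 A had 43.1%. Without PNF P30 B the count was 2315. On a scale over all 24 libraries, Ctsk was at 374 CPM (median) in perinatal PNF, 802 and 4662 CPM in PNF P30 A and B and 5242 CPM (median) in PPF at P30. Cyp2f2 was at 0 to 2.93 CPM in perinatal PNF and at 0 and 158 CPM in the 2 PNF libraries at P30, against 392 to 2397 CPM in PPF at P30. For Scara5 the PNF values at P30 were 55.9 and 628 CPM against 1071 to 1872 CPM in PPF, and for Mki67 149 and 9.92 CPM against 0.113 to 12.9 CPM. Egfl6 was at 272 and 6.18 CPM in PNF at P30, after a perinatal median of 410 CPM. These 5 genes were picked after their values were seen, and other genes went another way: Sfrp1 was at 88.6 CPM in PNF P30 B against a perinatal PNF median of 167 CPM, Aldh1a3 at 24.3 against 34.3 CPM, and Rgs5 at 109 against 102 CPM. The difference of the changes was not past the threshold for any of the 5 (adjusted p = 0.904 for Ctsk, 0.524 for Cyp2f2, 0.682 for Scara5, 0.662 for Mki67 and 0.524 for Egfl6).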

How the data were processed

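The authors deposited read counts per transcript. The file names give featureCounts as the counter, and the submitters' processing notes give mm10. The sources used here name no aligner. Of the 95883 transcripts, 82946 matched GENCODE vM21 and were added up over 34030 genes. The other 12937 held 5.64% of PPF counts and were left out. edgeR 4.0.16 in R 4.3.3 filtered genes by filterByExpr, scaled by TMM and fitted P30 against the 3 perinatal ages as 1 group with the two-sided quasi-likelihood test, with Benjamini-Hochberg adjustment over all tested genes and a threshold of 0.05. Scripts were tested on simulated counts. Reads carry no molecular identifiers, so that counts are not independent molecules. The comparison and the 46 gene lists were chosen with earlier results of these data known. Named genes were up to 12 per direction with the largest change among genes past the threshold. They also needed a mean of 10 CPM or more where higher and groups that did not overlap. Xist, Tsix, genes of chromosome Y, and predicted and pseudogene names were left out, while other genes of chromosome X were kept. Also named were up to 4 per list with the smallest p, and Prrx1, Pdgfra, Col1a1, Col3a1, Igf2 and H19. Alternatives were other scalings, filters, tests (DESeq2 1.42.0, limma 3.58.1), designs and left-out libraries. The single-cell samples were not analysed here. A few genes within the lists are not reported here by name.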

Additional observations from a re-analysis of the deposited data

Results flagged for a closer look

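Among the 6 P30 libraries, the gap test of Dixon at the 95% level was run on both ends of the CPM of each of the 96 genes described. For normally distributed values chance sets off about 1 in 20 groups. CPM at or near 0 are not so distributed, and their rate is not known. For Ska1 and Frrs1l every P30 library but A was at 0, so that any count in A would be flagged. Library A was the far value in 13 genes. In 11 of them it lay above the others and toward the perinatal level: Kif11 (17.5 CPM, next 5.16), Ndc80 (2.05, next 0.534), Ska1 (4.35, next 0), Ercc6l (1.53, next 0.316), Rrm2 (84.0, next 24.1), Igf2bp3 (3.71, next 1.18), Igf2bp1 (23.8, next 0.949), H19 (1.28, next 0.339), Igf2 (28.5, next 0.931), Egfl6 (46.7, next 17.0) and Frrs1l (0.767, next 0). In the other 2, Gpr1 (298 CPM, next 150) and Stc2 (45.4, next 21.7), it lay above the others in the direction of the rise. Library B was the far value for Car3 (28.5 CPM, next 5.88), Ccl8 (345, next 110) and Per3 (37.4, next 10.8). Without library A the number of genes past the threshold was 542, with 336 higher and 206 lower.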

How the results depend on the processing

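The number of calls was not stable. All 435 genes kept their direction in every alternative of the main comparison. The alternatives reuse the libraries in which the genes were called, so that a change of direction could hardly occur. The count was 1088 (650 higher, 438 lower) with DESeq2 and 1146 (603 and 543) with limma voom, 886 (716 and 170) with the 4 ages as terms and 808 (611 and 197) in the fit over 24 libraries. It was 137 when tested against a 2-fold change, 140 with C and D summed and E and F summed, 247 without the E16.5 libraries, 9 with libraries A and B only and, chosen after seeing the data, 125 without P30 B, C and D. Leaving out 1 library gave 225 (without P30 C) to 542 (without P30 A). With a replicate block it was 9; the differences between libraries A and B correlated between ages at only -0.183 to 0.0625, so the letters share only a name. RLE and upper quartile scaling, 2 other filters and leaving out E18.5 or P1 gave 327 to 450. Of the 435 genes, 400 were also past the threshold in both DESeq2 and voom. For the difference between PPF and PNF the count was 18 with DESeq2, and leaving out 1 library gave 0 to 2315, the latter without PNF P30 B and the only other value above 0 being 8 without PPF P30 A. For the 3 perinatal ages it was 715 with DESeq2 and 46 to 151 without 1 library. For the 96 genes described, 2111 values kept their side of the threshold, 554 lost it, 22 gained it and 0 reversed. Igf2 was past it with both other scalings. A gene that did not pass may still differ, and the part of depth in these counts was not tested.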

Other observations

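Lysosomal genes were looked at because several stood among the calls, so their list was chosen after seeing the data and is a description. Of 35 tested lysosomal enzymes and membrane proteins, 15 were higher at P30 and none lower, against 3.28% of all genes higher. Of the 35, 31 were above 0, and the median log2 fold change was 1.39 against -0.08 over all genes. The summed level was 4851, 5390 and 6155 CPM (lowest, median and highest) in perinatal libraries and 13540, 20363 and 31438 CPM at P30, without overlap. Besides Ctsk and Ctsl, which are also in the protease list, they included Ctsf, a cathepsin (medians 130 and 711 CPM, adjusted p = 3.9e-04), Gm2a, the activator of ganglioside breakdown (63.0 and 488 CPM, 0.0029), and Npc2, a cholesterol carrier of the lysosome (395 and 1235 CPM, 0.026).

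Histone genes that are made when DNA is copied were also looked at after seeing the data. Of 53 tested, 13 were lower and 1 higher (Hist2h2aa1, medians 79.8 and 146 CPM, adjusted p = 0.043), against 1.29% of all genes lower and 3.28% higher. Of the 53, 33 were below 0 and 20 above, with a median log2 fold change of -0.68. Of the 13, 12 were H2A genes of the cluster on chromosome 13, such as Hist1h2ap (medians 1308 and 186 CPM, adjusted p = 0.0042), and 1 was the linker histone Hist1h1b (67.9 and 6.56 CPM, 0.047). The H2A copies are nearly identical, and Hist1h2ap and Hist1h2ao had similar counts (72440 and 70323 perinatal, 5723 and 5606 at P30). Reads may be split between the copies or counted in more than 1, and the 12 are not independent. Every gene called in this list was an H2A gene or the linker histone, so that the count does not describe the other histone classes. The summed level of the list was 4317 to 16156 CPM in perinatal libraries and 865 to 2880 CPM at P30, and may count a read more than 1 time.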
